A study of Mus musculus with 2 samples.

Results

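The elastic fibre genes followed here were Eln, Fbn1, Fbln1, Fbln2, Fbln5, Mfap2, Mfap4 and Mfap5, with Mgp, the gene of matrix Gla protein. All 9 were found by symbol among the 27998 genes of the single-cell count matrices, and each was counted in every cell with at least 500 detected genes and at most 10% mitochondrial UMIs (unique molecular identifiers, 1 per captured transcript). The matrices came from the pancreas of C57BL/6 mouse embryos at day 18.5, with 1 library of control and 1 of Dpy30∆P knockout pancreas. The tissue was digested with trypsin for 20 min and run on a droplet 3′ kit, and 2607 cells of the library labelled control and 3228 of the library labelled knockout were kept, with medians of 6828 and 6628.5 UMIs per cell. Dpy30 encodes a core subunit of histone H3K4 methyltransferase complexes. The driver of its deletion, the part of the gene removed, the litters and whether organs were pooled are not given in these sources.

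Elastic fibres give lungs, arteries and skin their recoil. Soluble tropoelastin, the product of Eln, is deposited onto a scaffold of fibrillin microfibrils and crosslinked by lysyl oxidases. Fibrillin-1 (Fbn1) forms the microfibril, the small glycoproteins MAGP-1 (Mfap2) and MAGP-2 (Mfap5) bind to it, and fibulins, above all fibulin-5 (Fbln5), help to place elastin on it. Mgp encodes a vitamin K-dependent protein that holds back the calcification of elastic arteries and cartilage. In the developing pancreas such matrix is made chiefly by mesenchyme, by the mesothelium that covers the organ and by vessel walls.

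With 1 library per group there was no replicate, no p-value and no test of genotype. Intervals are 95% intervals for counting error only, exact Poisson for a level, exact conditional binomial for a ratio of levels and Clopper-Pearson for a share of cells. Over all barcodes, before any were removed, Xist gave 1 UMI in the library labelled control and 48052 in the library labelled knockout. Ddx3y gave 1624 and 0, so sex and genotype cannot be told apart. The 3′ tags of Dpy30 were not lower in the library labelled knockout: over 8 cell classes the ratio of labelled knockout to labelled control ran from 0.962 in endothelial-like to 1.83 in endocrine-like cells, its interval was above 1 in 4 classes and below 1 in 0. Whether those tags lie outside the deleted part is not given, so the genotype labels are used as names of the libraries. The kept cells of both libraries had 12 barcodes in common.

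Levels are CPM, the UMIs of a gene scaled to a common total of all UMIs of the cell class. A 3′ tag is counted once per transcript whatever its length, so CPM compares members without a length scale, apart from differences in how well each 3′ end is captured. Cell classes were named from marker genes that did not include the members, and the members were kept out of the genes used to cluster. Mesenchymal-like cells were 869 in the library labelled control and 1109 in the library labelled knockout, mesothelial-like cells 215 and 187, pericyte and smooth muscle-like cells 92 and 42, and endothelial-like cells 179 and 119. Their defining markers were present: all 21 mesenchymal markers, all 10 mesothelial markers, all 14 pericyte and smooth muscle markers and all 12 endothelial markers were detected in their own class in both libraries.

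The promoters of 5 members were in the RefSeq set for GRCm38.p6, as were those of 27025 genes in all. Those of Fbln1 and Fbln5 are printed because their 250 bases before the transcription start held 0 bases of annotated exon, and because they belong to fibulins with unlike levels in endothelial-like cells, given further on. They are written 5′ to 3′ on the gene's strand, Fbln1 at chr15:85205699-85205948 on the plus strand and Fbln5 at chr12:101819120-101819369 on the minus strand. Capitals mark GC boxes (GGGCGG) and CCAAT boxes (CCAAT), each searched on both strands.
Fbln1: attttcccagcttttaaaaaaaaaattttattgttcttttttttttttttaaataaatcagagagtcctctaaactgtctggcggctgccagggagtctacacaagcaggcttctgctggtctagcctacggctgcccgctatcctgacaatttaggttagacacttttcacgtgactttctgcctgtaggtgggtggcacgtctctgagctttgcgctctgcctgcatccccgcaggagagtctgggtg
Fbln5: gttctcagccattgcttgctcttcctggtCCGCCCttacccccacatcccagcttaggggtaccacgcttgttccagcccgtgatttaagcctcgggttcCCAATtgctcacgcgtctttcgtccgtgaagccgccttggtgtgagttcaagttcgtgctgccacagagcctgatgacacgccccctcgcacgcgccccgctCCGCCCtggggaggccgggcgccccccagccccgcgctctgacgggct
In the Fbln5 window a GC box stood 221 to 216 and another 48 to 43 bases before the start, and a CCAAT box 150 to 146 bases before it. The Fbln1 window held no match to these or to the TATA box (TATAAA), the AP-1 site (TGANTCA), the RBPJ site (GTGGGAA), the TEAD site (CATTCC) or the CArG box. Over all 27025 promoters of the same length a GC box was found in 32.9% and a CCAAT box in 34.5%. G and C made up 65.2% of the Fbln5 window and 46.4% of the Fbln1 window, beside a median of 52% over all promoters. Such matches describe letters and are not evidence of binding. Each of these genes had 2 entries in the set, of which 1 is shown, and the bases just after the start used for Fbln5 were not found in a GENCODE transcript of that gene.

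On GRCm38 the members lie on 7 chromosomes, Fbln2, Mfap5 and Mgp all on chromosome 6. Fbn1 is the longest, from 125300594 to 125507993 on chromosome 2 with 65 exons in its longest transcript, and Mgp the shortest, from 136872435 to 136875823 on chromosome 6. Eln spans 134702593 to 134747323 on chromosome 5, and its last exon, where 3′ tags fall, covers 1232 bases. Fbn1 overlaps Gm9913 and Mfap4 overlaps Mapk7, each on the opposite strand and each also in the matrices, and whether counting used strand is not given, so reads of these partners cannot be told apart.

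The members did not share 1 pattern of cell classes. Of the 9, 4 in the library labelled control and 5 in the library labelled knockout had their highest level in mesenchymal-like cells, and the others peaked in mesothelial-like, mural (pericyte and smooth muscle-like) or endothelial-like cells. In ductal-like cells no member exceeded 18.6 CPM.

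Eln, the elastin gene itself, was highest in pericyte and smooth muscle-like cells, at 874 CPM in the library labelled control and 644 in the library labelled knockout. Mesothelial-like cells followed at 790 and 512 CPM, and the Poisson intervals of these neighbours overlapped in both libraries. Mesenchymal-like cells held 250 and 187 CPM and endothelial-like cells 66.1 and 225 CPM, while ductal-like cells held 8.76 and 3.90. A few cells carried the mural level, with 4 cells holding 49.5% of its Eln UMIs in the library labelled control and 82.4% in the library labelled knockout. Mesenchymal-like cells held 37.2% of all Eln UMIs in the library labelled control and 45.4% in the library labelled knockout.

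The microfibril genes were mesenchymal. Fbn1 stood at 368 and 295 CPM in mesenchymal-like cells, against 110 and 98.5 CPM in the next class, the pericyte and smooth muscle-like cells. Mfap2 was the member with the highest mesenchymal level, 801 CPM in the library labelled control and 825 in the library labelled knockout, and was detectable in every compared class. Mfap5 stood at 494 and 457 CPM in mesenchymal-like cells against 46.0 and 25.1 in mesothelial-like cells, and it had 0 UMIs in the 179 endothelial-like cells labelled control, which allows up to 1.82 CPM. Mfap4, whose product binds fibrillin and tropoelastin, stood at 333 and 316 CPM there, 18.4 and 11.9 times the next class. Of its UMIs in all kept cells 89.0% and 85.5% were in mesenchymal-like cells, the highest share of the 9 members in each library, followed by 85.5% and 85.4% for Mfap5.

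The fibulins differed from each other. Fbln1 was near equal in mesothelial-like and mesenchymal-like cells of the library labelled control, at 210 and 196 CPM with overlapping intervals, and led in mesenchymal-like cells of the library labelled knockout, at 183 against 122 CPM. Fbln2 was mesothelial, at 510 and 331 CPM, with endothelial-like cells at 90.4 and 134 CPM and mesenchymal-like cells at 86.5 and 92.1 CPM. Fbln5 was endothelial, at 66.1 and 251 CPM, against 27.7 and 26.4 CPM in mesenchymal-like cells. Fbln1 held only 12.7 and 15.6 CPM in the same endothelial-like cells.

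Mgp was mesothelial, at 534 CPM in the library labelled control and 301 in the library labelled knockout. Mesenchymal-like cells held 115 and 91.6 CPM, mural cells 54.1 and 41.7, and endothelial-like cells 7.28 and 140. Ductal-like cells held 0.859 and 1.23 CPM.

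**Figure D1:**
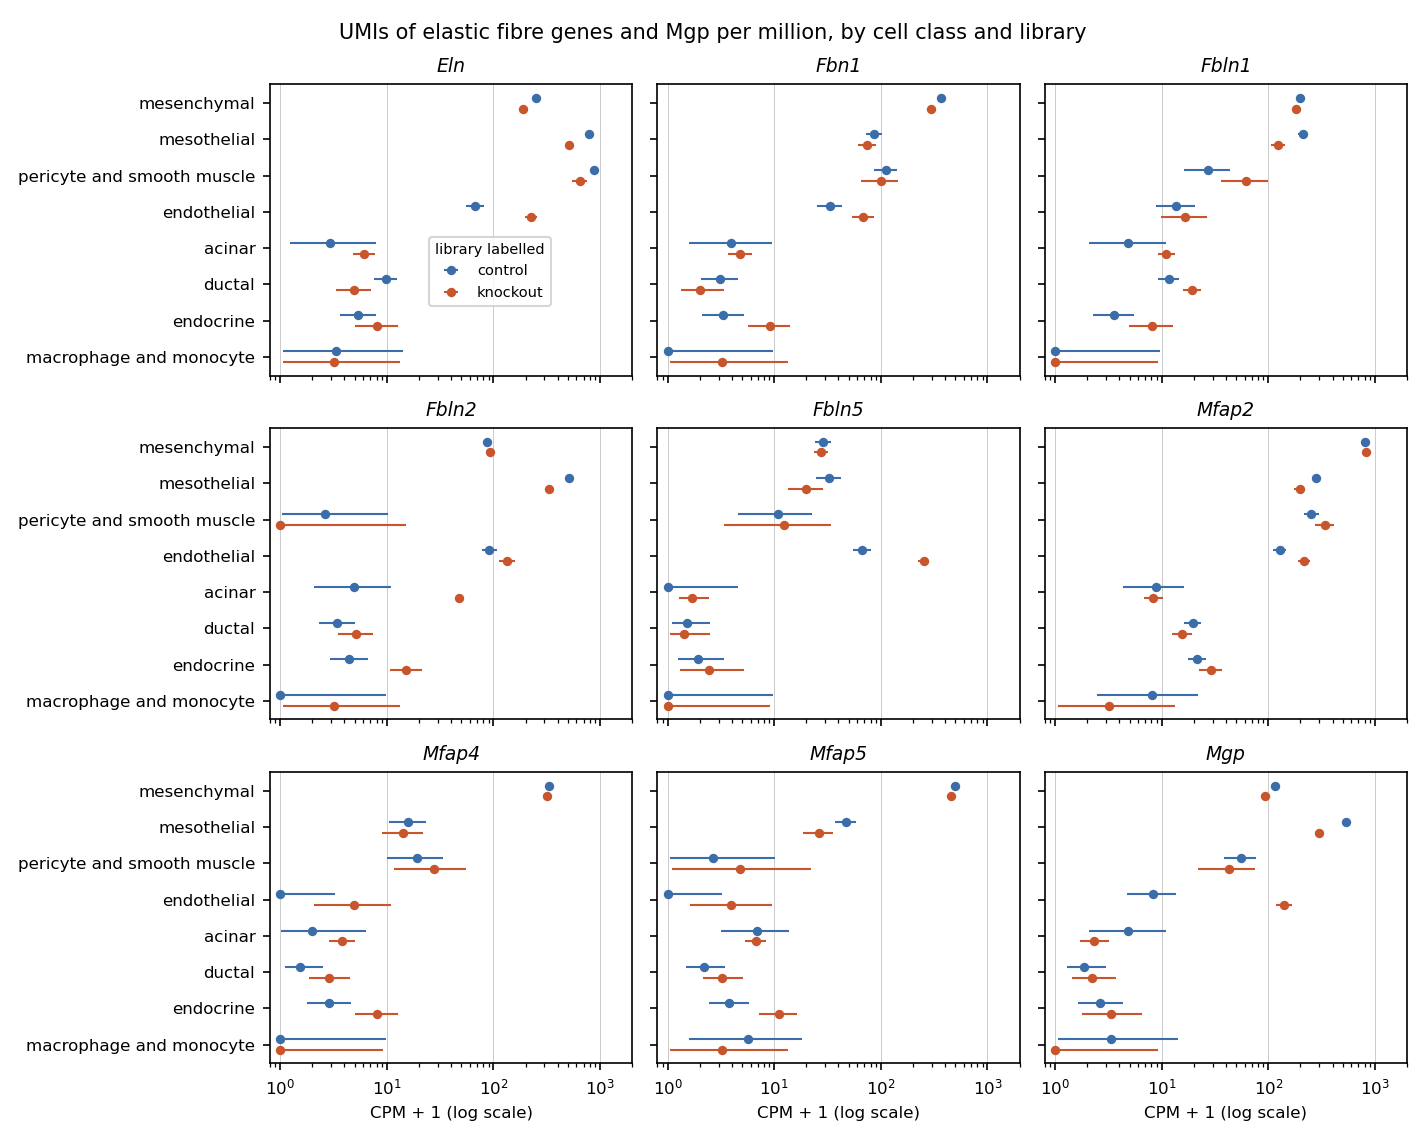
CPM of each member plus 1, on a log axis, in 8 cell classes of the library labelled control (blue) and the library labelled knockout (orange), 1 library each, with exact Poisson 95% intervals. Eln peaks in pericyte and smooth muscle-like cells (874 and 644 CPM), Fbln2 and Mgp in mesothelial-like cells, Fbln5 in endothelial-like cells, and Fbn1, Mfap2, Mfap4 and Mfap5 in mesenchymal-like cells.

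Counts per cell showed how widely each gene was used. When each cell was thinned to 2000 UMIs, 77.0% of 862 mesenchymal-like cells labelled control and 78.0% of 1097 labelled knockout had a UMI of Mfap2. Fbn1 was found in 41.1% and 39.6%, Mfap5 in 43.0% and 45.7%, and Mfap4 in 39.9% and 37.1%. At the low end Mgp was found in 11.9% and 8.75% and Fbln5 in 6.03% and 5.10%. In ductal-like cells, which should lack these genes, the thinned share was at most 3.63% for any member, and for Fbln5 it was 0 of 496 and 0 of 383 cells. Unthinned median depths were 5544 and 5417 UMIs in mesenchymal-like and 9827.5 and 10327 UMIs in ductal-like cells. The unthinned mesenchymal share of Mfap2 was 95.6% and 95.9%, and that of Mgp 21.5% and 16.3%. A thinned mesenchymal-like cell held a median of 3 of the 9 members in each library, 2.32% and 2.37% of these cells held none, and 34.8% and 30.2% held 4 or more.

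Mgp was the most uneven of the members in mesenchymal-like cells. The standard deviation of its UMIs over cells was 3.48 times the mean in the library labelled control and 5.31 times in the library labelled knockout, where a single cell held 52 UMIs. For Mfap2 the same ratio was 0.619 and 0.629. This ratio also rises as the level of a gene falls. Mgp had 571 and 568 UMIs in the class against 3990 and 5118 for Mfap2, and the part of level in the difference was not tested.

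In mesenchymal-like cells no member was past 1.5-fold between the libraries. An interval wholly below 1 was found for 4 of 9. The share of all genes with such an interval is not given here, so that count is no result about the members. All 9 had at least 100 UMIs there. Of 7830 such genes 1.69% were at least 1.5-fold higher and 3.05% at least 1.5-fold lower in the library labelled knockout. The 0 of 9 past 1.5-fold in either direction was near these shares and is no result about the members. Eln stood at 250 CPM (1246 UMIs) in the library labelled control and 187 CPM (1157 UMIs) in the library labelled knockout, a ratio of 0.746 (0.688 to 0.809), and it was below 1 in all 14 settings tried. Fbn1 had a ratio of 0.802 (0.751 to 0.856). The lower side also held Mgp at 0.799 (0.710 to 0.899), Mfap5 at 0.924 (0.875 to 0.976), Fbln1 at 0.930, Mfap4 at 0.952 and Fbln5 at 0.955. Above 1 were Fbln2, at 1.06 (0.937 to 1.21), and Mfap2, at 1.03 (0.988 to 1.07). The median log2 ratio of the members was -0.11, beside 0.01 over all genes with at least 100 UMIs. These intervals leave out differences between embryos, which 1 library per group cannot show. They also leave out differences between cells, which were wide for Mgp, so they are too narrow where few cells hold many UMIs.

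The Mgp ratio changed sign with the settings. On the log2 scale it was below 0 in 11 of 14 settings and -0.32 over the class, and it was 0.42 when each sub-cluster was given the same weight in both libraries, 0.26 at a limit of 5% mitochondrial UMIs and 0.08 at a minimum of 1000 detected genes. Eln, by contrast, ranged from -0.48 to -0.21 on the log2 scale over the same settings.

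Mesenchymal-like cells were divided into 8 sub-clusters without using the members, and the members differed in the sub-cluster where they were highest. The microfibril genes Fbn1 and Mfap5, with Fbln2, were highest in sub-cluster 1, led by Igfbp6, Stmn2, Krtdap, Gap43 and Fn1. Eln, Mfap4, Mgp, Fbln5 and Mfap2 were highest in sub-cluster 6 of both libraries, led by Cryab, Fhl1, Meox2, Cxcl13 and Id2. These sub-clusters held 211 and 360 cells and 36 and 13 cells in the libraries labelled control and knockout.

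In sub-cluster 1 Fbn1 stood at 737 and 481 CPM and Mfap5 at 1106 and 863 CPM. Mgp there was at 42.3 and 29.9 CPM and Eln at 139 and 138 CPM, the lowest Eln of the 8 sub-clusters in each library. Sub-cluster 6 held Eln at 1005 and 1003 CPM, Mfap4 at 1096 and 1930 CPM and Mgp at 1086 and 2705 CPM. Fbn1, at 342 and 319 CPM, and Mfap5, at 256 and 486 CPM, were under their levels in sub-cluster 1 but not low there. From the lowest to the highest sub-cluster Mgp spanned 64.8-fold in the library labelled control and 90.6-fold in the library labelled knockout, while Mfap2 spanned 1.69-fold and 2.13-fold. The 13 cells of sub-cluster 6 labelled knockout held 178 Mgp UMIs, 64.0% of them in 4 cells.

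Sub-cluster 5, led by Sept4, Heyl, Gucy1a3, Id1 and Pdgfrb, held little of the MAGP-2 and fibulin-2 genes. Mfap5 was at 20.7 and 4.11 CPM there (6 and 1 UMIs) and Fbln2 at 17.2 CPM (5 UMIs) and 0 UMIs in 48 and 40 cells. Mfap2 was still at 719 and 706 CPM in those cells. Of the leading genes, Heyl and Pdgfrb are known from mural cells, and Pdgfrb was among the pericyte and smooth muscle markers.

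The largest sub-cluster, 0, with 303 and 456 cells and led by Cxcl1, Serpine2, Unc5d, Zfos1 and Chodl, held Mfap2 at 871 and 849 CPM and Mfap4 at 377 and 377 CPM. Fbn1 there was at 183 and 161 CPM and Mfap5 at 183 and 193 CPM, well under their levels in sub-cluster 1. Sub-cluster 2, led by the cell cycle genes 2810417H13Rik, Top2a, Tk1, Hist1h1b and Rrm2, lay between, with Fbn1 at 330 and 338 CPM and Mfap5 at 478 and 482 CPM. Sub-cluster 4, led by the sterol synthesis genes Idi1, Msmo1, Sqle, Hmgcs1 and Cyp51, held 103 cells labelled control and 11 labelled knockout. Sub-cluster 3, led by Gm42418, Abhd14b, AY036118, Oxa1l and Hbb-bs, held Fbln1 at 262 and 228 CPM. Sub-cluster 7, led by Cenpa, Hist1h2bc, Ccnb2, Hist1h1c and Lockd, held only 12 and 25 cells.

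Between the libraries Fbn1 had a ratio of 0.653 (0.597 to 0.714) in sub-cluster 1, which held 992 and 982 of its 1834 and 1830 mesenchymal UMIs. It was the 1 of 8 members with at least 100 UMIs there that was at least 1.5-fold lower, beside 3.98% of 4091 genes. The Fbn1 ratio was 0.604 (0.395 to 0.918) in sub-cluster 3, on 56 and 42 UMIs, 0.878 (0.751 to 1.03) in sub-cluster 0 and 1.02 (0.865 to 1.21) in sub-cluster 2. In sub-clusters 4 to 7 it was 1.15, 0.596, 0.934 and 1.64, each with an interval that held 1. Mfap5 had a ratio of 0.780 (0.728 to 0.836) in sub-cluster 1, 1.05 (0.907 to 1.23) in sub-cluster 0 and 1.90 (1.18 to 3.01) in sub-cluster 6, the last on 51 and 32 UMIs. Mfap2 had 1.21 (1.12 to 1.31) in sub-cluster 1, 1.26 (1.04 to 1.53) in sub-cluster 3 and 0.662 (0.473 to 0.930) in sub-cluster 7. The intervals of Mfap5 and Mfap2 in the other sub-clusters held 1. Eln was at 0.994 in sub-cluster 1 and 0.998 in sub-cluster 6, and at 0.849 (0.740 to 0.975) in sub-cluster 0, 0.707 in sub-cluster 2, 0.668 in sub-cluster 3 and 0.551 in sub-cluster 5. In sub-cluster 4, with 11 cells labelled knockout, Eln was at 1.57 (0.893 to 2.60), and in sub-cluster 7 at 0.773 (0.399 to 1.53). For Mgp the ratio was below 1 in sub-clusters 0 to 3, at 0.916 (0.718 to 1.17), 0.706 (0.484 to 1.03), 0.668 (0.506 to 0.880) and 0.492 (0.276 to 0.860) in that order. It was above 1 in sub-cluster 6, at 2.49 (2.03 to 3.05), and, on 10 to 18 UMIs labelled knockout, in sub-clusters 4, 5 and 7. Sub-cluster 6 made up 4.14% of mesenchymal-like cells labelled control and 1.17% of those labelled knockout and held 216 of 571 and 178 of 568 mesenchymal Mgp UMIs. None of these differences between sub-clusters was tested.

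Over the 16 sub-cluster by library values of log2 expression, Fbn1 followed Mfap5 (Pearson r 0.92) and Eln followed Fbln5 (0.87), while Mfap4 followed Mgp (0.86). Fbn1 and Mfap2, both microfibril genes, had an r of 0.07. These points share libraries and depth, several rest on few cells, and the correlations are descriptions.

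**Figure D2:**
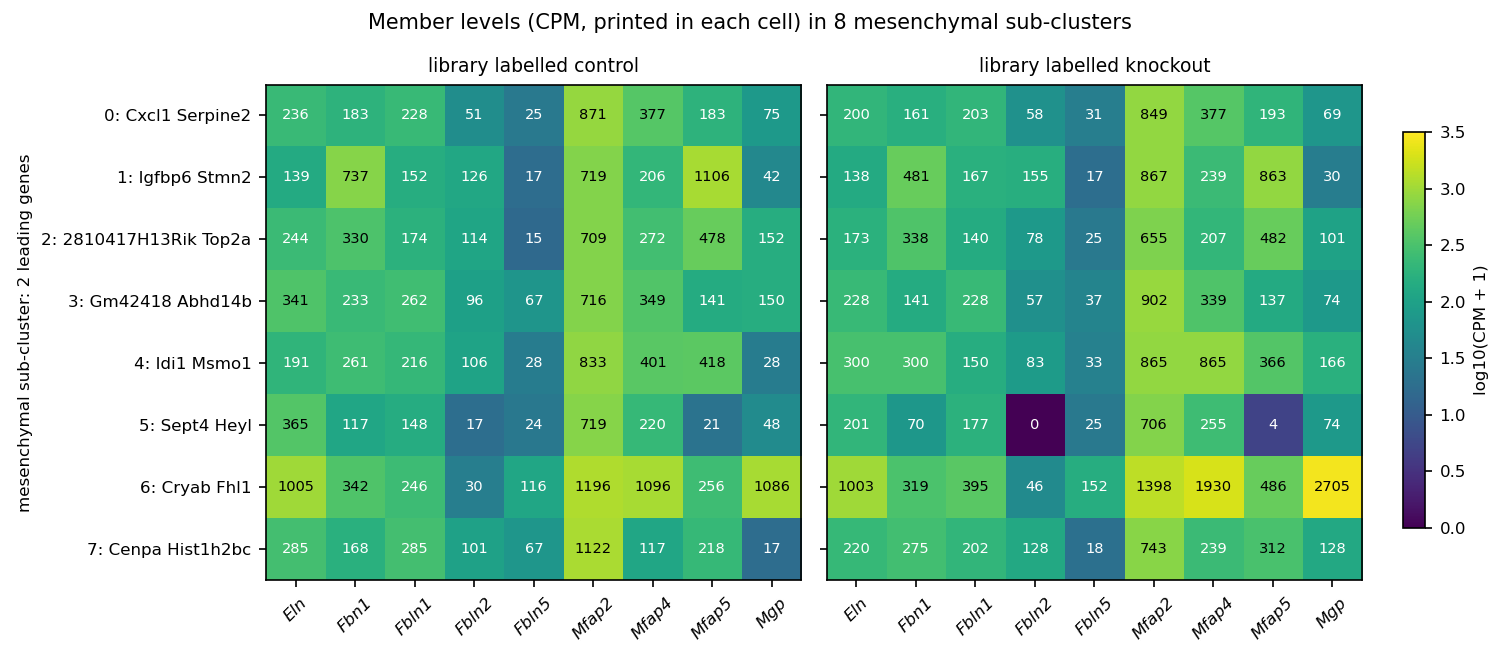
CPM of each member in the 8 mesenchymal sub-clusters (rows, named by number and their first 2 leading genes) of the library labelled control (left) and the library labelled knockout (right), coloured by log10(CPM + 1). Fbn1 and Mfap5 are highest in sub-cluster 1 in both panels, and Eln, Mfap4 and Mgp in sub-cluster 6 (for Mgp 1086 and 2705 CPM).

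In mesothelial-like cells the members were lower in the library labelled knockout. Of the 7 with at least 100 UMIs, all 7 had a ratio below 1 and 5 were at least 1.5-fold lower (Eln, Fbln1, Fbln2, Mfap5 and Mgp), beside 3.71% of 3825 such genes. At least 1.5-fold higher were 0 of 7, beside 2.3% of the same genes. The median log2 ratio of the 7 members was -0.62, beside 0.00 over all of those genes.

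Mgp, inhibitor of calcification, had 859 UMIs in 215 mesothelial-like cells labelled control (534 CPM) and 432 in 187 cells labelled knockout (301 CPM), a ratio of 0.564. Eln stood at 790 and 512 CPM, a ratio of 0.649 (0.592 to 0.711). Fbln2 had a ratio of 0.650 (0.579 to 0.728) and Fbln1, at 210 and 122 CPM, one of 0.580 (0.481 to 0.699). Mfap5 was at 46.0 and 25.1 CPM, on 74 and 36 UMIs. Mfap2 stayed inside the limit at 278 and 197 CPM, a ratio of 0.708 (0.608 to 0.823), as did Fbn1 at 85.1 and 73.1 CPM, whose interval (0.660 to 1.12) held 1. Fbln5, on 51 and 27 UMIs, and Mfap4, on 24 and 19, were under 100 UMIs in all and had ratios of 0.593 and 0.887.

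The direction was shared by both mesothelial-like clusters for most members. In cluster 4, with 187 and 164 cells, Mgp had a ratio of 0.631 (0.556 to 0.716), and in cluster 22, with 28 and 23 cells and Cenpf among its leading genes, 0.289 (0.203 to 0.405). Eln was at 0.653 in cluster 4 and 0.635 in cluster 22. Mfap5 was at 0.420 in cluster 4 and 1.38 (0.533 to 3.71) in cluster 22, where it had 9 and 12 UMIs, and Fbn1 was at 0.818 and 1.16. Thinned to 2000 UMIs per cell the share of mesothelial-like cells with an Eln UMI was 70.1% and 58.4%, and with an Mgp UMI 49.8% and 38.4%, while the unthinned Mgp shares were equal at 78.1% and 78.1%.

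Other RNA moved with this result. The 7 erythroid markers summed to 9131 CPM in mesothelial-like cells labelled control and 20623 CPM in those labelled knockout, with Slc4a1 at 0 in the library labelled control. With haemoglobin, mitochondrial, digestive enzyme, hormone and member genes left out of the totals, Mgp had a log2 ratio of -0.81, against -0.83 with all genes. The 10 mesothelial markers summed to 3384 and 3016 CPM and the 21 mesenchymal markers to 14660 and 12749 CPM, and their part in the result was not tested. Fewer member transcripts per cell and fewer cells rich in them were not separated here.

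In pericyte and smooth muscle-like cells the counts rested on 92 and 42 cells. Eln had 533 UMIs (874 CPM) in the library labelled control and 170 (644 CPM) in the library labelled knockout, a ratio of 0.736 (0.616 to 0.877). These UMIs lay largely in the few cells already described. With every cell given equal weight the log2 ratio was 0.19, against -0.44 for summed UMIs. Mfap2 stood at 253 and 337 CPM, on 154 and 89 UMIs, with a ratio of 1.33. Only Eln and Mfap2 reached 100 UMIs, and 0 of 2 were past 1.5-fold, beside 3.99% of 1078 genes higher and 3.99% lower. Fbln2 had 1 UMI and 0 UMIs in this class, and 0 among 42 cells allows up to 11.4 CPM.

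**Figure D3:**
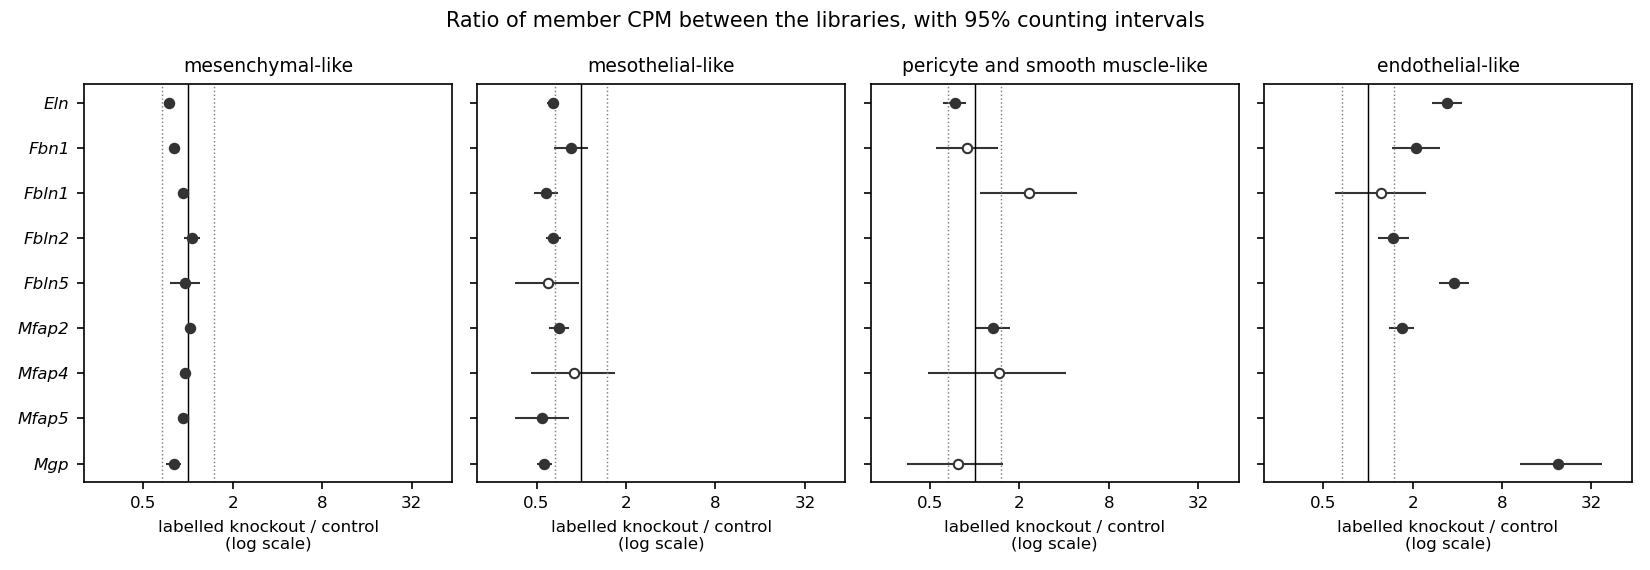
Ratio of CPM in the library labelled knockout to CPM in the library labelled control for each member (rows) in 4 cell classes, on a log axis, with exact conditional 95% intervals for counting error. Filled points have at least 100 UMIs in both libraries together and open points fewer, members with under 5 UMIs in either library are not drawn, the solid line marks 1 and dotted lines mark 1.5-fold either way. Mesenchymal-like points lie inside the dotted lines, all 7 filled mesothelial-like points lie below 1, and the filled endothelial-like points lie above 1.

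In endothelial-like cells the members were higher in the library labelled knockout, and the difference sat in very few cells. Of 6 members with at least 100 UMIs, 5 were at least 1.5-fold higher (Eln, Fbn1, Fbln5, Mfap2 and Mgp), beside 1.73% of 3524 genes, and 0 were at least 1.5-fold lower, beside 3.63%. Mgp had 12 UMIs (7.28 CPM) in 179 cells labelled control and 143 UMIs (140 CPM) in 119 cells labelled knockout, a ratio of 19.2 (10.6 to 38.0). It reached 100 UMIs only through the library labelled knockout, so its place among the 5 is not evidence of a difference. Eln stood at 66.1 and 225 CPM, a ratio of 3.40 (2.69 to 4.30), and Fbln5 at 66.1 and 251 CPM, a ratio of 3.79 (3.02 to 4.79). Fbn1 had 2.09, Mfap2 1.69 and Fbln2 1.48.

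The class held 2 clusters. Cluster 21, led by Gja4, Cldn5, Tm4sf1 and Pecam1 with arterial connexin 37 (Gja4) first, held 37 cells labelled control and 16 labelled knockout. There Eln was at 12.8 CPM (4 UMIs) and 1139 CPM (182 UMIs), Fbln5 at 57.4 and 1221 CPM, and Mgp at 0 UMIs, which allows up to 9.57 CPM, and 833 CPM (133 UMIs). All 182 Eln UMIs and all 133 Mgp UMIs of the 16 cells labelled knockout came from 4 cells.

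Those 4 cells were rich in several members at once. In the order used below they held 31098, 5417, 21991 and 7803 UMIs of all genes. The median of cluster 21 labelled knockout was 7927.5, and the part of depth in their counts was not tested. The first held 51 Eln, 114 Fbln5, 61 Mgp and 33 Fbln2 UMIs, the second 105, 27, 37 and 12. The other two held 18, 39, 20 and 28 and 8, 11, 15 and 2 UMIs of the same genes. Endothelial and arterial genes were present in each, with Cldn5 at 197, 56, 155 and 17 UMIs and Gja4 at 65, 19, 76 and 7. The smooth muscle gene Acta2 and the mesothelial gene Upk3b were at 0 in all 4. The fourth cell also held mesenchymal and pericyte transcripts, with 13 Col3a1, 3 Col1a1, 2 Dcn and 2 Rgs5 UMIs and 0 of the arterial gene Gja5, while the other cells held 0, 0 and 1 Col1a1 UMIs and 0 of Col3a1, Dcn and Rgs5. Of the 49 Fbn1 UMIs of cluster 21 labelled knockout they held 27, 0, 12 and 3. In the library labelled control the cell with the most of these genes lay in cluster 6 and held 62 Eln, 16 Fbln5 and 6 Mgp UMIs.

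In the larger cluster 6, led by Fabp4, Rgcc, Gpihbp1 and Cdh5, with 142 and 103 cells, Eln was at 78.7 and 55.5 CPM, but 62 of its 105 UMIs in the library labelled control came from 1 cell, so its direction there rested on that cell. Fbln5 was at 68.2 and 71.7 CPM and Mgp at 8.99 and 11.6 CPM. Of the 4 members with at least 100 UMIs there, 1 was at least 1.5-fold higher, beside 1.53% of 2941 genes: Mfap2, at 93.7 and 163 CPM, a ratio of 1.74 (1.36 to 2.23). In cluster 21 the Mfap2 ratio was 1.82 (1.33 to 2.51), with 14, 5, 23 and 7 of its 79 UMIs labelled knockout in the same 4 cells as above. Thinned to 2000 UMIs, the share of endothelial-like cells with an Mfap2 UMI was 21.7% (15.8 to 28.6) and 28.7% (20.6 to 37.9), with overlapping intervals.

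Markers of other cells moved with the endothelial result. The 21 mesenchymal markers summed to 381 CPM in the library labelled control and 672 in the library labelled knockout, with Scara5 at 0 in both, the 14 pericyte and smooth muscle markers to 51.6 and 145 CPM, with Myh11 and Cnn1 at 0 in both, and the 7 erythroid markers to 2332 and 7256 CPM. The 12 endothelial markers summed to 7597 and 7252 CPM. Their part in the endothelial result was not tested.

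Exocrine and endocrine cells held little of any member, with 1 exception, Fbln2 in acinar-like cells. There it had 4 UMIs in 110 cells labelled control (3.87 CPM) and 462 in 757 cells labelled knockout (46.4 CPM), a ratio of 12.0 (4.65 to 44.2). Fbln1 was at 3.87 and 10.0 CPM, on 4 and 100 UMIs, a ratio of 2.59 whose interval (0.982 to 9.71) held 1. These were the only members to reach 100 UMIs, and both reached it only through the library labelled knockout. That both were at least 1.5-fold higher and 0 lower is therefore no result about the members. The class differed widely between the libraries, with 19.6% of 6574 genes at least 1.5-fold higher and 5.02% at least 1.5-fold lower.

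The acinar-like cells of the libraries lay mostly in different clusters. Cluster 3, led by Reg1, Cela1, Prss3 and trypsin genes, held 3 cells labelled control and 437 labelled knockout, and Fbln2 was at 51.4 CPM in the latter, with a UMI in 183 of them. In cluster 5, led by Cela2a, Clps and Cela3b and filled from both libraries with 90 and 255 cells, Fbln2 was at 2.53 and 30.3 CPM, with a UMI in 2 and in 53 cells, a ratio of 12.0 (3.18 to 101). Cluster 18 had 11.4 and 46.9 CPM, on 2 and 43 UMIs. In clusters 5 and 18, which both libraries filled, the Fbln2 ratio rested on few control UMIs, so its direction within clusters is no result about the member.

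Acinar-like cells labelled knockout were also deeper, with a median of 11625 against 6223 UMIs. Thinned to 2000 UMIs, 1.16% (0.0294 to 6.31) of 86 cells labelled control and 6.58% (3.81 to 10.5) of 243 cells labelled knockout in cluster 5 had an Fbln2 UMI. These intervals overlapped. The mean over cells gave a log2 ratio of 1.40 over the class, against 3.58 for summed UMIs. In the ductal-like cells of the same libraries the thinned Fbln2 share was 0.806% and 1.31%, and Fbln2 stood at 2.41 and 4.11 CPM, on 14 and 20 UMIs. The 21 mesenchymal markers summed to 241 and 232 CPM in acinar-like cells and to 289 and 387 CPM in cluster 5, and the 10 mesothelial markers to 7.74 and 7.43 CPM in the class. The 7 erythroid markers summed to 1136 and 3559 CPM and the 14 acinar markers to 144918 and 71093 CPM in the class, and the part of these lists in the Fbln2 result was not tested.

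**Figure D4:**
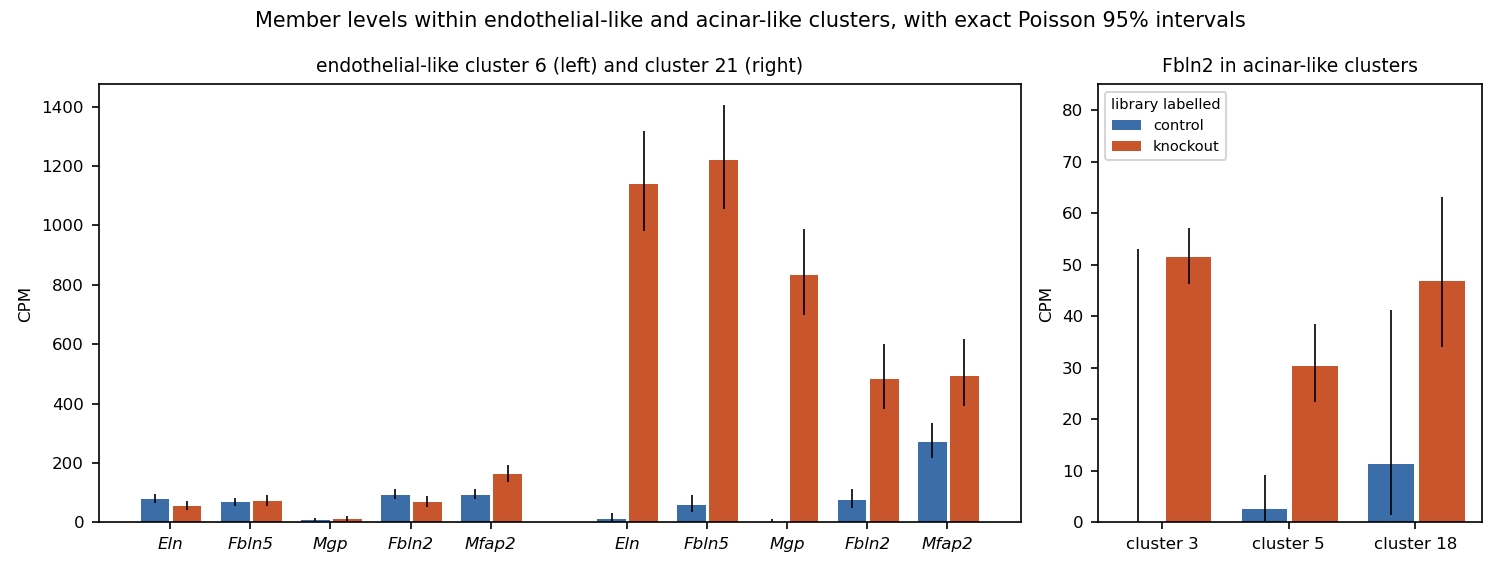
Left, CPM of 5 members in endothelial-like clusters 6 and 21, and right, CPM of Fbln2 in 3 acinar-like clusters, in the library labelled control (blue) and the library labelled knockout (orange), with exact Poisson 95% intervals. Eln, Fbln5 and Mgp reach 1139, 1221 and 833 CPM in cluster 21 of the library labelled knockout (16 cells). Fbln2 CPM is higher in the library labelled knockout in acinar-like clusters 5 and 18, on few control UMIs, while cluster 3 held only 3 cells labelled control.

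Ductal-like cells showed Fbln1 at 10.7 CPM (62 UMIs) and 18.3 CPM (89 UMIs), a ratio of 1.72 (1.23 to 2.41). It was the 1 of 2 members with at least 100 UMIs that was at least 1.5-fold higher, beside 2.25% of 8204 genes, the other being Mfap2 at 18.6 and 14.6 CPM. Eln was at 8.76 and 3.90 CPM on 51 and 19 UMIs, with 23 of the 51 in a single cell. In endocrine-like cells only Mfap2 reached 100 UMIs, at 20.5 and 27.9 CPM, and Fbln2 was at 3.46 and 14.2 CPM on 15 and 30 UMIs. The 21 mesenchymal markers summed to 99.8 and 499 CPM in endocrine-like cells and the 14 pericyte and smooth muscle markers to 5.76 and 21.8 CPM, and their part in these levels was not tested.

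The partners of the members were read in mesenchymal-like cells from lists of 20 UMIs or more per gene, over which 4.48% of 11292 genes were at least 1.5-fold higher and 6.72% at least 1.5-fold lower. The median log2 ratio of all those genes was 0.00. Of the elastic fibre partners, 17 of 24 were measured, 2 were higher and 2 lower, and their median log2 ratio was -0.19. Fbn2, the fibrillin of early microfibrils, was at 440 and 353 CPM, a ratio of 0.802 (0.756 to 0.852), the same size as that of Fbn1. Efemp2, which encodes fibulin-4, a protein that carries lysyl oxidase to elastin, was at 161 and 183 CPM, a ratio of 1.14 (1.04 to 1.25). Of the 4 past 1.5-fold, Adamts17 was at 13.4 and 20.5 CPM on 67 and 127 UMIs, a ratio of 1.52 (1.12 to 2.08). The others had under 100 UMIs, with Vtn at 2.41 and 5.48 CPM, Ltbp1 at 6.02 and 3.71 CPM and Adamtsl4 at 6.82 and 4.51 CPM.

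Of the crosslinking enzymes, 8 of 9 were measured and 0 were past 1.5-fold in either direction, with a median of -0.15. Lox, a lysyl oxidase that crosslinks elastin and collagen, was at 195 and 173 CPM, and P4hb, the shared subunit of prolyl 4-hydroxylase, at 389 and 374 CPM. Loxl2 had the lowest ratio of the list at 0.777 (0.691 to 0.874), followed by Pxdn at 0.798. Of the genes for elastin turnover and receptors 16 of 19 were measured, again 0 past 1.5-fold, with a median of -0.01. Timp3, an inhibitor of matrix metalloproteinases, was at 196 and 182 CPM and the integrin chain Itgb1 at 180 and 175 CPM. Itgav had 0.791 and Neu1, a sialidase of the elastin receptor complex, 1.31.

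Of the partners of Mgp, 17 of 19 were measured, 0 were higher and 1 lower, with a median of 0.00. Vkorc1, which recycles vitamin K for the carboxylation of Mgp, was at 230 and 277 CPM, a ratio of 1.20 (1.11 to 1.30), and Pros1 at 78.5 and 67.7 CPM. The gene past 1.5-fold was Bmp4, a growth factor that Mgp can bind, at 8.03 and 3.71 CPM on 40 and 23 UMIs. Nqo1 had 1.27. Of TGF-beta signalling genes 16 of 18 were measured and 0 were past 1.5-fold, with a median of -0.09. Dcn was at 1533 and 1751 CPM and Cyr61 at 695 and 598 CPM, while Thbs1 had 0.757 (0.711 to 0.806).

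The same lists in mesothelial-like cells stood beside 7.16% of 9335 genes at least 1.5-fold higher and 9.97% at least 1.5-fold lower. Elastic fibre partners had 1 higher (Ltbp1, on 11 and 15 UMIs) and 1 lower of 13, the lower being Fn1, fibronectin, at 203 and 107 CPM, a ratio of 0.524 (0.430 to 0.637). Fbn2 there was at 435 and 499 CPM and Lox at 145 and 142 CPM, neither of them lower by 1.5-fold. Of 7 crosslinking enzymes 0 were past 1.5-fold, with Loxl1 at 0.716 (0.585 to 0.873). Of 11 turnover and receptor genes 0 were higher and 3 lower (Itgav, Itgb3 and Neu1, the last on 25 and 14 UMIs). Of 12 Mgp partners 1 was higher and 0 lower, Bmp2 at 14.3 and 31.3 CPM. Of 15 TGF-beta genes 1 was higher and 1 lower, the lower being Bgn at 50.9 and 32.0 CPM.

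The genes whose levels were most like a member's over the 16 class by library values were read by Pearson r of log2(CPM + 10). Most points are low in every class but a few, which raises all such correlations. For Fbn1 the first was another member, Mfap2 (0.98), followed by Akap12 and Svil. Mfap2 in turn was most like Fstl1, Akap12 and Fbn1. Mfap4 was most like Vcan, Tmem45a and Islr (0.98 each), and Mfap5 most like Krtdap (0.99), Itih5 and Fgf10. Eln was most like Nr2f2, Fhl1 and Hoxa5, and Mgp most like Hoxa5, Hotairm1 and Aebp1, so Hoxa5 was named for both. Fbln1 was most like Boc, Mmp23 and Adamts5, Fbln2 most like Arhgap28, Arhgap29 and Tmem150a, and Fbln5 most like Tmem47, Dchs1 and Ehd2. Fbn1 and Mfap2 were thus the most alike of all pairs of members over classes, with an r of 0.98, beside 0.07 over mesenchymal sub-clusters.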

How the data were processed

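Single-cell RNA-seq of pancreas, 1 library labelled control and 1 labelled Dpy30∆P knockout, was read from the deposited matrices, which hold raw UMI counts per gene and barcode; they were made with Cell Ranger 3.0.0, per the file headers, and the builds (GRCm38, mm10) and Seurat (2, 3) come from the submitters' processing notes. Aligner and annotation: not given in the sources used here. A deposited table of the authors' own cluster comparisons gave p-values and an average log fold change of unstated base, read as a score; only p-values are printed. Barcodes numbered 3986 (25398522 UMIs) and 4779 (33048640 UMIs), and 0 columns of values were left unmapped.

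Cells with under 500 genes (1290 and 1465), over 10% mitochondrial UMIs (63 and 57) and doublets called by Scrublet (26 and 29) were removed. Both libraries were clustered together with scanpy 1.11.5 (2000 variable genes, 30 components, 15 neighbours, Leiden resolution 1, leidenalg 0.10.2), without the members. A cluster was named from at least 3 listed markers among its 50 leading genes, and clusters with fewer such markers, of mixed types, or with median UMIs more than 3 times under their library's stayed unnamed. Mesenchymal-like cells were clustered again at resolution 0.5. UMIs were summed by class and library. Past 1.5-fold means at least 1.5-fold with at least 100 UMIs in both libraries together (20 for the lists); a count of 0 was taken to allow 3 counts. Cells were thinned to 2000 UMIs for shares. UMIs are counted molecules, and intervals and floors cover counting error only.

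The ratio step was tested on simulated data. Other tools were SciPy 1.17.1, pandas 2.3.3, NumPy 2.4.6, matplotlib 3.10.9 and Python 3.11.15. The members, markers, gene lists and settings were chosen with earlier results of these data known. Named genes were all members, for each list the 2 most abundant and the 2 whose ratio lay furthest from 1 (20 UMIs or more), the 3 genes most like each member and the 5 leading genes of each sub-cluster; other list genes past 1.5-fold, Lox in mesothelial-like cells and the leading genes of clusters were named after their values were seen. A gene of the TGF-beta list that the rule names is not reported here. Alternatives were 15 planned and 3 added.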

Additional observations from a re-analysis of the deposited data

Results flagged for a closer look

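Several members had opposite directions in 2 cell classes of the same pair of libraries, each with an interval on 1 side of 1; the differences between classes were not tested. The ratio of labelled knockout to labelled control was 3.40 for Eln in endothelial-like cells and 0.649 in mesothelial-like cells. Mgp had 19.2 and 0.564, and Mfap2 1.69 and 0.708, in the same classes. Fbn1 was at 2.09 in endothelial-like and 0.802 in mesenchymal-like cells. Fbln1 was at 1.72 in ductal-like and 0.580 in mesothelial-like cells, and Fbln2 at 12.0 in acinar-like and 0.650 in mesothelial-like cells. Endothelial Mgp and acinar Fbln2 reached 100 UMIs only through the library labelled knockout, so these 2 ratios are not evidence of a difference. The 2 classes of each member were those with intervals furthest from 1 on each side, so the opposition was picked from these same values. For Eln, Fbn1 and Mgp the endothelial side rested largely on 4 cells of cluster 21.

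Cluster 12, left unnamed for its low UMI counts and led by haemoglobin genes, lies outside the comparisons. Its 96 cells labelled knockout held Mfap2 at 143 CPM on 31 UMIs, against 31.9 CPM on 3 UMIs in 51 cells labelled control. Mfap5 was at 96.8 CPM on 21 UMIs there, against 0 UMIs. The 21 mesenchymal markers summed to 605 and 4802 CPM in the same cells, and their part in the result was not tested.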

How the results depend on the processing

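No paired analysis was possible because each group has 1 library, and for the same reason no library could be left out. The count of members past 1.5-fold in mesenchymal-like cells was 0 in every setting that gave a count, and of 126 ratios there under alternatives 106 moved by less than their counting interval and 20 by more. No member was called there, and signs did change: log2 ratios reached 0.42 for Mgp, 0.31 for Fbln5, 0.21 for Mfap4 and 0.09 for Mfap5, each below 0 in the class as reported. All 9 mesothelial ratios stayed below 1 in all 13 settings, but the count of 5 at least 1.5-fold lower became 2 with cells thinned to 2000 UMIs, 0 at a minimum fold of 2 and 3 in the larger mesothelial-like cluster alone. The count of 5 higher in endothelial-like cells became 1 in the larger endothelial-like cluster alone, where Eln and Fbn1 reversed to log2 ratios of -0.50 and -0.22 because cluster 21 was left out; the Eln value there rests on 1 cell labelled control with 62 of 105 UMIs. The members highest in mesenchymal-like cells, 4 in the library labelled control, were 2 at a minimum of 1000 genes, 2 at 5% mitochondrial UMIs and 2 with the members kept among the clustering genes; the 5 in the library labelled knockout were 2 with the members kept. The cause of the changed counts of highest members was not tested. Mesenchymal Fbln2 moved to a log2 ratio of -0.49 with the level of ductal-like and acinar-like cells subtracted, and Eln in mural cells ranged from -1.28 to 0.26. The 3 added alternatives (the cell-cycle-led cluster joined to the mesenchyme, and the larger endothelial-like and mesothelial-like clusters alone) were chosen after seeing the data. Members with few UMIs, such as Mfap4 and Fbln5 in mesothelial-like cells, are limited by depth.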

Other observations

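In the authors' deposited table of cluster comparisons 4 of the 9 members appear in 8 lines. Fbn1 is listed for 3 clusters, Fbln1 and Fbln2 for 2 each and Mfap4 for 1, number 9, with an adjusted p-value of 9.18e-22 in the authors' deposited table. Which cells its clusters hold is not given. In the epithelial-like cells counted here (acinar, ductal and endocrine together, 979 labelled control and 1376 labelled knockout), Mfap4 had a UMI in 1.23% and 2.83%, Fbn1 in 2.15% and 2.83%, and Fbln2 in 3.17% and 22.3%. These shares were not thinned to a common depth. Acinar-like cells were 110 and 757 of these cells, with medians of 6223 and 11625 UMIs. The part of makeup and depth in the shares was not tested.

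Cluster 9, led by Cenpa, Nusap1, Mxd3 and Top2a and left unnamed because none of its 50 leading genes was a listed marker, held 85 cells labelled control and 120 labelled knockout with mesenchymal-like member levels. Mfap2 was at 555 and 571 CPM there, Mfap5 at 477 and 352 CPM, Fbn1 at 416 and 259 CPM and Eln at 151 and 156 CPM. Joined to the mesenchymal-like class it left the log2 ratio of Mgp at -0.27.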
